A study of Rattus norvegicus with 26 samples.

Results

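The genes described here encode the carriers of the inner mitochondrial membrane (the Slc25a family) and the translocases that bring proteins into mitochondria (the Timm and Tomm genes). They were taken by name: every gene of the array annotation whose symbol begins with Slc25a, Timm or Tomm and goes on with a digit. This gave 50 genes, 33 Slc25a, 12 Timm and 5 Tomm, of 13337 named genes. No measured value enters this rule, though earlier results of these data were known when genes and lists were chosen.

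Heart RNA of male rats of the inbred strains SHRSP and F344 was hybridized to RatRef-12 BeadChips of Illumina, which hold 22523 probes and are read in 1 colour, with 1 array per sample. SHRSP, the stroke-prone spontaneously hypertensive rat, develops high blood pressure and a thickened left ventricle, and F344 is the normotensive strain set against it. There were 26 arrays, namely 7 of F344 and 4 of SHRSP at day 20 of embryonic development (E20), and 8 of F344 and 7 of SHRSP at week 14 of age. The study asked how fetal and adult expression in the heart differ, and whether they differ in the same way in both strains.

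By the methods, the fetal RNA came from hearts freed of the atria, purified on RNeasy columns, and the adult RNA from the left ventricular free wall, purified with TRIzol. The labels give TRIzol for all arrays and name the fetal tissue as the whole heart. Age, tissue and, by the methods, extraction changed together, so their shares in a comparison of E20 with week 14 cannot be told apart.

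Mitochondria make most of the ATP of the heart muscle cell. Substrates, phosphate and ADP enter the matrix, and ATP leaves it, through carriers that span the inner membrane and belong to a single protein family. Nearly all mitochondrial proteins are made in the cytosol, pass the outer membrane through the TOM complex, and are then handed to TIM23, which draws proteins with a presequence into the matrix, or to TIM22, which sets the carriers themselves into the inner membrane. Small chaperones of the Timm8, Timm9, Timm10 and Timm13 kind escort the carriers between both membranes. The fetal heart relies largely on glycolysis and lactate, and the adult heart on the oxidation of fatty acids.

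The deposited values are log2 intensities that the authors quantile-normalized over the arrays. They run from 6.64 to 15.53 with a median of 7.16 and a 75th percentile of 7.88. Near the lower end background makes up much of the signal, so differences there understate the difference in RNA. All 4 group means of 17 of the 50 genes were under the 75th percentile, and for Slc25a2, Slc25a22, Slc25a41 and Slc25a47 they were also under the median. Levels are compared between arrays for 1 probe at a time, and not between genes. The arrays of a group correlated at 0.98 to 0.998, after the authors had removed arrays that correlated less with their group. The spread within groups is therefore that of the arrays kept. SHRSP E20 replicates 1 and 2 (r = 0.998) and 3 and 4 (r = 0.997) were the closest pairs, where the remaining pairs of SHRSP E20 gave r = 0.994 to 0.995. Replicates 6 and 7 of F344 E20 also reached 0.998, and all arrays were counted as separate samples. Whether such a pair shares a litter or a processing step was not tested, and results that depend on counting all 4 arrays are named as they come.

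Development is given as E20 minus week 14, so a negative log2 difference is a lower level at E20. Each difference comes from 1 limma fit over all probes and arrays, with p-values adjusted over the 22523 probes, and a gene is said to have passed, or to be higher or lower, at an adjusted p under 0.05. Of the 50 genes 0 passed a log2 difference of 1.5 together with the adjusted p in any comparison, on the deposited values, and over all probes 2.1% did so for development in SHRSP, 1.97% in F344, 0.2% between the strains at week 14, 0.124% between them at E20 and 0.0666% in the interaction. That 0 depends on the background left in the values: with it subtracted, 3 genes in SHRSP (Slc25a20, Slc25a29 and Slc25a34) and 5 in F344 (these and Slc25a21 and Slc25a35), all lower, went past 1.5 for development. Sizes and ranks below are on the deposited scale, and 17 of the development differences that passed in SHRSP and 15 in F344 grew by more than 1.5 times with background subtracted, as did 4 strain differences at week 14, 3 at E20 and 2 interactions.

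Of the 50 genes 16 were higher at E20 in SHRSP and 19 lower, which leaves 15 that did not pass. For F344 the numbers were 17 higher, 16 lower and 17 not passed. Over all probes 17.0% were higher and 15.7% lower in SHRSP, and 18.6% were higher and 17.2% lower in F344. Taking only the probe with the highest mean of each named gene, 39.5% passed in SHRSP and 43.1% in F344 in either direction. Both strains, which share no arrays, gave the same direction for 13 higher and 16 lower genes, and 0 genes passed in opposite directions. Another 6 passed in SHRSP but not F344, 4 in F344 but not SHRSP and 11 in neither. For all probes the share with the same direction in both strains was not computed, so the agreement of the strains is not read as particular to these genes. With the close SHRSP E20 pairs averaged, 14 were higher and 14 lower in SHRSP, and the calls of Slc25a1, Slc25a16, Slc25a25, Slc25a27, Timm10, Timm23 and Tomm22 were lost there (adjusted p = 0.0729 to 0.164). The ranges of E20 and week 14 did not overlap for 26 of the 50 genes in SHRSP and 20 in F344, against 25.6% and 18.0% of all probes.

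Carriers and import genes were called in different proportions. Of 33 carriers 6 were higher and 15 lower at E20 in SHRSP, and 9 were higher and 13 lower in F344. Of 17 import genes 10 were higher and 4 lower in SHRSP, and 8 were higher and 3 lower in F344. The median log2 difference was -0.07 for the carriers in both strains, and 0.24 in SHRSP and 0.16 in F344 for the import genes, where that of all probes was near 0 (-0.0043 and -0.0046). Whether the proportions of the carriers and import genes differ was not tested.

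**Figure D1:**
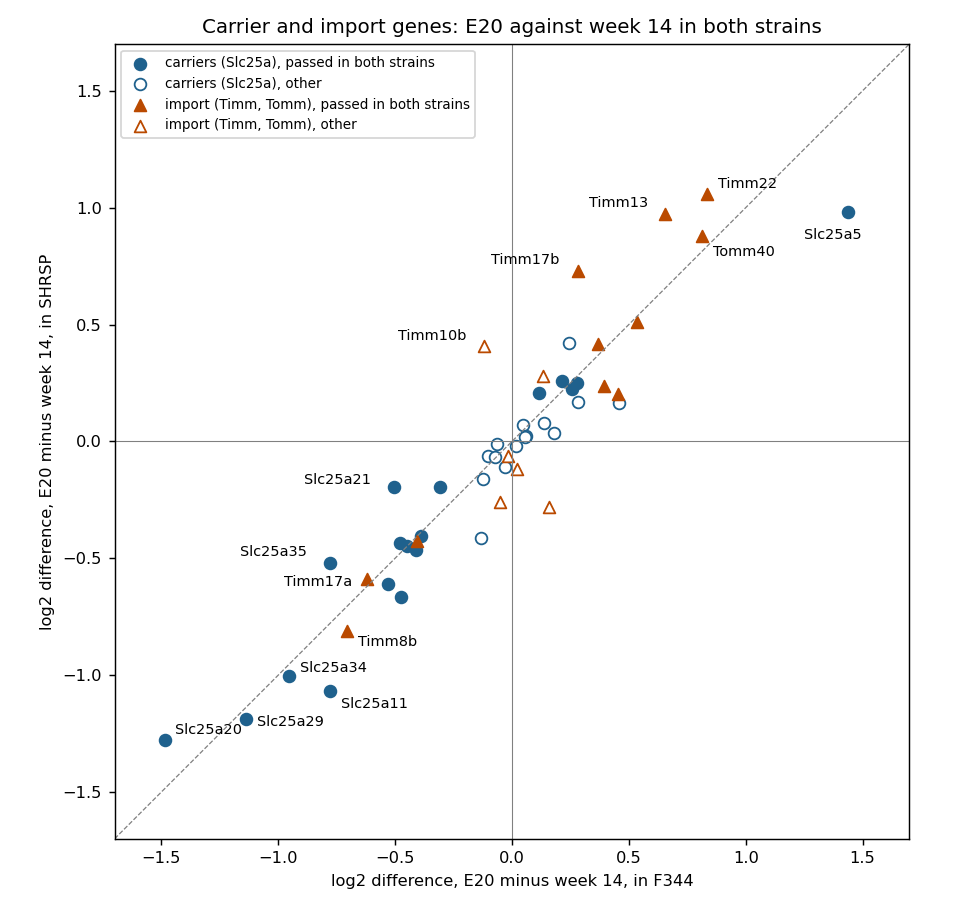
Log2 difference of E20 minus week 14 in F344 (x axis) and in SHRSP (y axis) for each of the 50 genes, with circles for carriers, triangles for import genes and filled symbols where the gene passed in both strains. The 29 filled symbols all have the same sign in both strains, 16 negative and 13 positive, and the dashed line marks equal differences.

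The respiratory chain, which these carriers feed, is the nearest comparison. The 76 genes of the respiratory chain and ATP synthase were taken by symbol prefix and include assembly factors, such as Ndufaf1, Sdhaf2 and Cox15. Of the 76 genes 48 were lower and 6 higher at E20 in SHRSP, with a median log2 difference of -0.45. In F344, 56 were lower and 7 higher, with a median of -0.51. The 59 genes of mitochondrial ribosomal proteins had medians of -0.14 and -0.12. The medians of the 50 carrier and import genes were -0.04 and -0.00.

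The ADP/ATP carriers exchange cytosolic ADP for matrix ATP. Slc25a4 (ANT1) is the form of heart and skeletal muscle, and Slc25a5 (ANT2) is that of dividing cells and of many other tissues. Their genes moved in opposite directions: Slc25a4 was lower and Slc25a5 higher at E20 in both strains.

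The promoters of both are shown because their genes moved apart, followed by those of 3 other genes that passed in both strains. Each covers 250 bases before to 50 after the transcription start, 5′ to 3′, from RefSeq on build GRCr8, for 44 of the 50 genes. Slc25a4 lies at chr16:52805271-52805570 on the plus strand, Slc25a5 at chrX:120897366-120897665 (plus), Slc25a20 at chr8:118243323-118243622 (plus), Timm8b at chr8:59850487-59850786 (plus) and Tomm20 at chr19:71832371-71832670 (minus). Capitals mark matches to CCGGAAG, the ETS-type motif bound by nuclear respiratory factor 2 (GABPA), and in Timm8b also to AAGGTCA, the motif of the estrogen-related receptors (ERR).
Slc25a4: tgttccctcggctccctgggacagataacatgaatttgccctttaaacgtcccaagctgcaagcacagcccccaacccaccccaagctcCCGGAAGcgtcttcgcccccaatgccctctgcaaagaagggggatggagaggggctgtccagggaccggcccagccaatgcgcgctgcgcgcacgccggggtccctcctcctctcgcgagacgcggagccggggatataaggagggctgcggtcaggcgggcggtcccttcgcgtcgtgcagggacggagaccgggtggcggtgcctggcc
Slc25a5: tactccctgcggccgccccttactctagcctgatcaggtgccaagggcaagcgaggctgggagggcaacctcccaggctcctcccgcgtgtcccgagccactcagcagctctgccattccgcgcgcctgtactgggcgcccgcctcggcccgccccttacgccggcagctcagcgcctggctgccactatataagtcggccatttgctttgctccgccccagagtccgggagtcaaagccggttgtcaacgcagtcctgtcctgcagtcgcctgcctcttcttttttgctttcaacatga
Slc25a20: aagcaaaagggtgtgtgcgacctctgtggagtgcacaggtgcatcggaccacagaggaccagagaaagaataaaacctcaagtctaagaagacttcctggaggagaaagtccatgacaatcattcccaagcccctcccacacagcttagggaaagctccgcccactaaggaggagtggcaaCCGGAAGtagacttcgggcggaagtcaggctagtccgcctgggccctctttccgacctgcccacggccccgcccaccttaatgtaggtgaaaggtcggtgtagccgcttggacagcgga
Timm8b: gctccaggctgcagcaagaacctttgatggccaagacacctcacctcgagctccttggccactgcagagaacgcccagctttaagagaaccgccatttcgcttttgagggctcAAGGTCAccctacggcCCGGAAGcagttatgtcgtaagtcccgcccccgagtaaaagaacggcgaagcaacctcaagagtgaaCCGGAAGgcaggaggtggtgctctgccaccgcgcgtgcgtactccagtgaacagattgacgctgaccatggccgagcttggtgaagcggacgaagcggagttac
Tomm20: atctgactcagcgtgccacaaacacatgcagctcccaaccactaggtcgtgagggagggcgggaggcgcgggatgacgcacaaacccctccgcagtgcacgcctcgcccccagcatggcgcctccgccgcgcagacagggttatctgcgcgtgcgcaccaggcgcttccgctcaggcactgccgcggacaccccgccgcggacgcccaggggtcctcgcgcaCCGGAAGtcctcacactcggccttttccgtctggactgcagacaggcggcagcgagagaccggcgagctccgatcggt

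CCGGAAG or its reverse complement was in the window of 13 of the 44 genes (29.5%), against 8.75% of 33469 promoters. The 13 were Slc25a3, Slc25a4, Slc25a14, Slc25a17, Slc25a20, Slc25a38, Timm8b, Timm10, Timm10b, Timm23, Tomm20, Tomm22 and Tomm70. Of these 6 were lower and 3 higher at E20 in both strains, so genes with the motif moved both ways. AAGGTCA was found in 4 of the 44 (9.09%, against 4.61% of all promoters), namely Slc25a34, Timm8b, Timm23 and Timm44. GCGCATG, the motif of nuclear respiratory factor 1 (NRF1), was found in Timm10b alone (2.27%, against 3.77%). Both strands were searched, and the 3 motifs do not contain one another. A match says only that these letters are present. Slc25a26, Slc25a30, Slc25a32, Slc25a46, Slc25a52 and Tomm34 have no entry.

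Slc25a4 read 14.43, 14.70, 14.54 and 14.76 on the 4 SHRSP arrays at E20, and 14.91 to 15.19 with a median of 15.06 on the 7 at week 14. In F344, Slc25a4 ran from 14.44 to 14.91 with a median of 14.74 at E20 and from 15.01 to 15.23 with a median of 15.16 at week 14. Every array at E20 was below every array at week 14 of its strain, and the log2 difference was -0.45 in SHRSP (SE 0.07, adjusted p = 4.68e-06) and -0.45 in F344 (SE 0.06, adjusted p = 1.94e-07). The interaction of strain and stage for Slc25a4 was -0.00 (adjusted p = 0.999).

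Slc25a5 read 13.92, 13.98, 14.12 and 14.01 in SHRSP at E20, against 12.77 to 13.25 (median 13.13) at week 14. In F344, Slc25a5 ran from 14.00 to 14.68 (median 14.43) at E20 and from 12.62 to 13.25 (median 12.89) at week 14. Groups again did not overlap, in the other direction, with log2 differences of 0.98 in SHRSP (SE 0.13, adjusted p = 3.57e-07) and 1.44 in F344 (SE 0.10, adjusted p = 7.56e-12). The difference in F344 was the most positive of the 50 genes in either strain. The interaction was -0.45 (adjusted p = 0.178), so a difference between the strains in this change did not pass.

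The balance of both isoforms was taken on each array as Slc25a4 minus Slc25a5. A constant difference in brightness between the 2 probes cancels when arrays are compared. Whether both probes respond alike, with Slc25a4 near the top of the scale, was not tested. The balance was 0.60 ± 0.16 (SD, n = 4) in SHRSP and 0.36 ± 0.28 (n = 7) in F344 at E20, and 2.03 ± 0.27 (n = 7) and 2.25 ± 0.25 (n = 8) at week 14. The balance shifted by -1.43 in SHRSP and -1.89 in F344 (exact permutation tests, two-sided, adjusted over 4 tests, p = 0.0121 and 0.00124). Their unadjusted values, 0.00606 and 0.000311, are the smallest that arrays of these numbers can give. The SHRSP value counts the 4 arrays at E20 as separate. The balance with the close SHRSP E20 pairs averaged was not tested. SHRSP differed from F344 by -0.22 at week 14 and by 0.24 at E20, and neither passed (exact permutation, adjusted p = 0.158 for both).

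**Figure D2:**
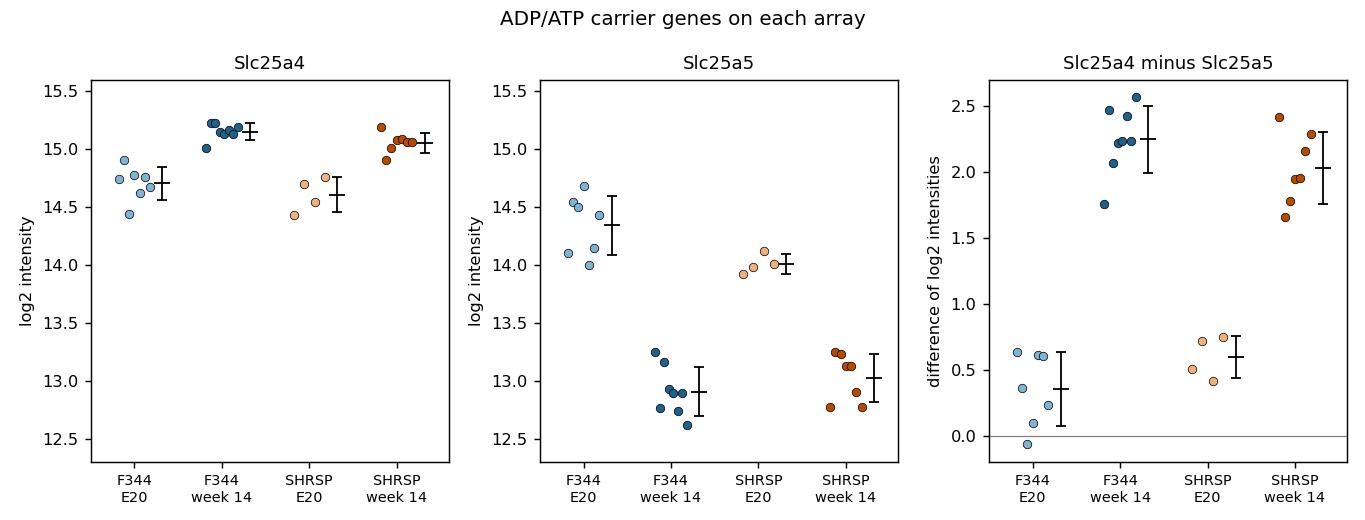
Log2 intensity of Slc25a4 and Slc25a5 and, at right, their difference on each array (y axes) in the 4 groups (x axis), with 1 point per array and bars for mean ± SD. At E20 the points of Slc25a4 lie lower and those of Slc25a5 higher than at week 14, and the difference falls from 2.25 to 0.36 in F344 and from 2.03 to 0.60 in SHRSP, read from week 14 to E20.

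The tissue was checked with markers. The 7 cardiomyocyte markers measured summed to linear intensities of 105033 to 144411 at E20 and 138556 to 165511 at week 14, and 4 of 7 were lower at E20 in each strain. The 6 fibroblast markers summed to 21939 to 35219 at E20 and 15351 to 25383 at week 14, with 3 higher and 3 lower. Macrophage markers, 4 of 4, were lower at E20 (805 to 1063 against 2235 to 3923), with Cd163 under the median of all values there. Of 4 endothelial markers 2 were lower (1216 to 1435 against 1738 to 2726), as were 2 of 5 adipocyte markers (3658 to 5057 against 6577 to 9778), among which Lep and Ucp1 stayed under the median. The 2 atrial markers measured, Myl7 and Nppa, summed to 19535 to 29596 at E20, against 11656 to 28017 in SHRSP and 2898 to 8799 in F344 at week 14. Myl7, the atrial myosin light chain, was higher at E20 in both strains (6.24 in SHRSP, 2.46 in F344), and Nppa, the atrial natriuretic peptide, was lower in SHRSP (-1.13) and higher in F344 (1.45). The part of these cell types in any development result was not tested, and in bulk tissue fewer cells of a type and less RNA per cell cannot be told apart.

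The phosphate carrier Slc25a3, which supplies the phosphate for ATP synthesis, was lower at E20, from 14.68 ± 0.07 (SD, n = 7) at week 14 to 14.07 ± 0.02 (n = 4) in SHRSP (log2 difference -0.61, SE 0.09, adjusted p = 4.32e-06) and from 14.67 ± 0.09 (n = 8) to 14.13 ± 0.26 (n = 7) in F344 (-0.53, SE 0.08, adjusted p = 1.61e-06). The ATP-Mg/phosphate carriers set the total pool of adenine nucleotides in the matrix and did not move together. Slc25a25 was lower (-0.40 and -0.39), Slc25a24 was higher (0.22 in SHRSP, 0.26 in F344), and Slc25a41 did not pass. Slc25a23 was higher in F344 (0.14, adjusted p = 0.0268), where the call was lost without F344 E20 replicate 2, 3 or 4 or F344 week 14 replicate 3 (adjusted p up to 0.0759). In SHRSP it was 0.08 (adjusted p = 0.355), with an interaction of -0.06 that did not pass (adjusted p = 0.865). Slc25a23, Slc25a24 and Slc25a41 lay under the 75th percentile of all values in every group.

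Among carriers of metabolic acids, Slc25a20, the carnitine/acylcarnitine carrier through which long-chain fatty acids reach the matrix, had the most negative difference of the 50 genes in both strains on the deposited scale. With background subtracted it reached -1.54 in SHRSP and -1.84 in F344, behind Slc25a34 and Slc25a29 in both strains. In F344 it was also behind Slc25a35 (-1.87). It read 8.62, 8.72, 8.96 and 9.07 in SHRSP at E20, against 9.49 to 10.62 (median 10.03) at week 14. In F344, Slc25a20 ran from 8.17 to 9.06 (median 8.74) at E20 and from 9.58 to 10.51 (median 10.25) at week 14. No fetal array reached the lowest adult array, and the log2 differences were -1.28 (SE 0.20, adjusted p = 7.24e-06) in SHRSP and -1.49 (SE 0.16, adjusted p = 2.31e-08) in F344.

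Slc25a11, the 2-oxoglutarate/malate carrier of the malate-aspartate shuttle, read 11.96, 11.93, 11.85 and 11.83 in SHRSP at E20, against 12.67 to 13.23 (median 12.98) at week 14. In F344, Slc25a11 ran from 11.77 to 12.56 (median 12.05) and from 12.52 to 13.29 (median 12.94). The SHRSP groups were apart, and those of F344 overlapped between 12.52 and 12.56, with log2 differences of -1.07 (SE 0.13, adjusted p = 9.73e-08) and -0.78 (SE 0.10, adjusted p = 6.69e-07). Slc25a12 and Slc25a13, the aspartate/glutamate carriers of the same shuttle, have no named probe here.

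Slc25a21, the carrier of 2-oxoadipate and related acids, was lower at E20 as well (-0.20 in SHRSP, -0.50 in F344). The remaining 2 of these carriers went the other way. Slc25a10, the dicarboxylate carrier, was higher at E20 (0.21 for SHRSP, 0.12 for F344), at means of 7.19 to 7.47. Slc25a1, which exports citrate for lipid synthesis, was higher in SHRSP (0.42, adjusted p = 0.0187), and its 0.25 in F344 did not pass (adjusted p = 0.101). The SHRSP call was lost without SHRSP E20 replicate 3 (adjusted p = 0.094) or 4 (0.0562).

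Of 5 carriers of amino acids 3 were lower at E20 in both strains and the other two, the ornithine carrier Slc25a2 and the glutamate carrier Slc25a22, did not pass and lay under the median of all values. Slc25a29 carries basic amino acids. Its arrays read 7.52, 7.53, 7.68 and 7.74 in SHRSP at E20, against 8.39 to 9.08 (median 8.92) at week 14. In F344, Slc25a29 ran from 7.54 to 7.68 (median 7.63) and from 8.44 to 9.21 (median 8.59). The fetal arrays sat close together at the low end of the scale, apart from all adult ones, with log2 differences of -1.19 (SE 0.14, adjusted p = 6.72e-08) and -1.14 (SE 0.11, adjusted p = 3.91e-09). With background subtracted they were -2.08 and -1.99. Slc25a15, the ornithine carrier of the urea cycle, was lower, at -0.66 and -0.47.

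Slc25a38 brings glycine into the matrix for the first step of heme synthesis and is best known from red cell precursors. It was lower at E20, at -0.44 in SHRSP and -0.48 in F344. Erythroid markers moved the other way. Of 6 measured, 4 were higher at E20 in SHRSP and 3 in F344, and their summed linear intensity was 36083 to 48892 at E20 and 8002 to 28587 at week 14, where Alas2 was under the median of all values.

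Of 9 carriers of nucleotides and cofactors 2 were higher at E20 in both strains. Slc25a17, a peroxisomal carrier of CoA and other cofactors, was higher by 0.25 and 0.28, and Slc25a40, a relative of the glutathione carrier Slc25a39, by 0.26 and 0.22. Slc25a16, linked to CoA, was lower, at -0.19 and -0.31, and in SHRSP the call was lost without SHRSP E20 replicate 1, 2 or 4 or SHRSP week 14 replicate 1, 5, 6 or 7 (adjusted p = 0.0562 to 0.141). Slc25a51, the NAD carrier, was higher in F344 (0.46, adjusted p = 6.09e-06), as was its relative Slc25a52 (0.18, adjusted p = 0.000343). The SHRSP values for these were 0.16 (adjusted p = 0.163) and 0.04 (adjusted p = 0.612), and the interactions, -0.29 and -0.14, did not pass (adjusted p = 0.222 and 0.302). Slc25a39, the S-adenosylmethionine carrier Slc25a26, the folate and FAD carrier Slc25a32 and the CoA carrier Slc25a42 did not pass in either strain.

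Of 7 relatives of the uncoupling proteins and carriers of less known substrate, 5 were lower at E20 and 0 higher in SHRSP, and 3 were lower and 1 higher in F344. Slc25a34, whose substrate is not settled, read 6.96, 7.0, 6.95 and 6.97 in SHRSP at E20, against 7.81 to 8.20 (median 7.97) at week 14. In F344, Slc25a34 ran from 6.86 to 7.03 (median 6.95) and from 7.65 to 8.07 (median 7.90). All fetal arrays were under the median of all values and all adult ones above it, with log2 differences of -1.0 (SE 0.08, adjusted p = 4.21e-11) and -0.95 (SE 0.06, adjusted p = 1.94e-12). With fetal values this near the background the sizes of these differences are lower bounds. With background subtracted every fetal array sat at the floor of 16, and the differences were -3.04 and -2.88, set by that floor. Its relative Slc25a35 was lower, at -0.52 and -0.78, and Slc25a30 (KMCP1) at -0.46 and -0.41.

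Slc25a14 (UCP5) and Slc25a27 (UCP4), both best known from brain, were lower in SHRSP (-0.41 and -0.11). Their F344 values were -0.13 (adjusted p = 0.069) and -0.03 (adjusted p = 0.49), and neither interaction passed (adjusted p = 0.0981 and 0.56). The SHRSP call for Slc25a27 was lost without SHRSP E20 replicate 1 (adjusted p = 0.069) or 2 (0.0662). Slc25a46, which sits in the outer membrane and shapes mitochondria, was higher in F344 (0.28, adjusted p = 0.0241), where the call was lost without F344 E20 replicate 2 or 4 or F344 week 14 replicate 2, 5 or 8 (adjusted p up to 0.0646). In SHRSP it was 0.17 (adjusted p = 0.332), with an interaction of -0.12 that did not pass (adjusted p = 0.867). Slc25a47, known from liver, did not pass and had means of 6.90 to 6.93.

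**Figure D3:**
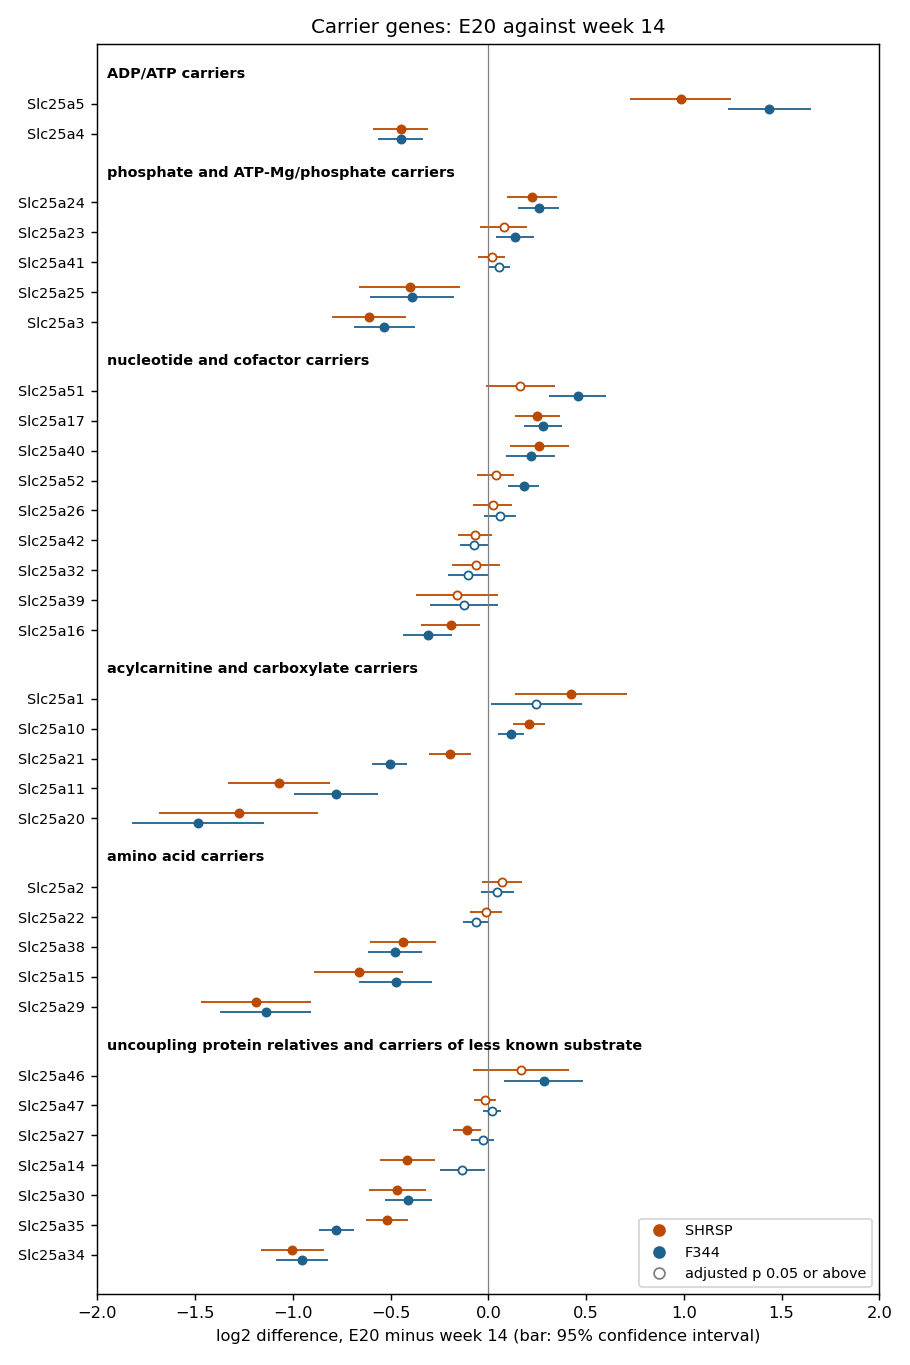
Log2 difference of E20 minus week 14 (x axis) for the 33 carrier genes grouped by role (y axis), in SHRSP (orange) and F344 (blue), with 95% confidence intervals from the limma fit and open points where the gene did not pass. Slc25a5 at 0.98 and 1.44 stands apart from the other carriers to the right, and Slc25a20, Slc25a29, Slc25a34 and Slc25a11 reach from -0.78 to -1.49 on the left.

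In the TOM complex, the entry gate of the outer membrane, 3 of the 4 genes measured were higher at E20 in each strain and 0 were lower. Tomm40 forms the channel. It read 9.63, 9.63, 9.27 and 9.17 in SHRSP at E20, against 8.38 to 8.75 (median 8.49) at week 14. In F344, Tomm40 ran from 9.24 to 9.72 (median 9.42) and from 8.42 to 8.83 (median 8.67). All fetal arrays were above all adult ones, with log2 differences of 0.88 (SE 0.10, adjusted p = 3.96e-08) and 0.81 (SE 0.08, adjusted p = 4.23e-09).

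The receptors differed less. Tomm20, which binds presequences, was higher by 0.24 and 0.39, and Tomm22, the central receptor, by 0.20 and 0.45. The SHRSP call for Tomm22 was lost without SHRSP E20 replicate 1 (adjusted p = 0.0501), without replicate 2 (0.126) and under limma-trend (0.0931). That for Tomm20 was lost without SHRSP E20 replicate 1 (adjusted p = 0.0743) and by the methods' equal-variance test of the 2 groups after Benjamini-Hochberg adjustment (0.0788). Tomm34, a cytosolic co-chaperone, was higher in SHRSP (0.28, adjusted p = 0.00782, and 0.0544 without SHRSP E20 replicate 1). It was 0.13 in F344 (adjusted p = 0.126), with an interaction of 0.14 that did not pass (adjusted p = 0.68). Tomm70, the receptor that takes carrier precursors from cytosolic chaperones, passed in neither strain, with -0.28 for SHRSP (adjusted p = 0.095) and 0.16 for F344 (adjusted p = 0.277).

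In the TIM23 complex, the route into the matrix, the 2 forms of the Timm17 subunit, which borders the channel with Timm23, went opposite ways. Timm17a was lower at E20, at -0.59 in SHRSP (SE 0.08, adjusted p = 3.66e-07) and -0.62 in F344 (SE 0.06, adjusted p = 4.21e-09). Timm17b was higher by 0.73 in SHRSP (SE 0.13, adjusted p = 4.37e-05) and by 0.28 in F344 (SE 0.11, adjusted p = 0.0403). The F344 call for Timm17b was lost without any of 10 single F344 arrays, replicates 1, 3, 4, 5, 6 and 7 at E20 and 1, 4, 5 and 7 at week 14 (adjusted p up to 0.105). Of the 13 other alternatives only 6 kept this call. Timm23 was lower in SHRSP (-0.26, adjusted p = 0.0129), where the call was lost without SHRSP E20 replicate 1 (adjusted p = 0.0504) or 2 (0.0593). It was -0.05 in F344 (adjusted p = 0.621), with an interaction of -0.21 that did not pass (adjusted p = 0.44). Timm21, which links TIM23 to TOM, and Timm44, which docks the import motor, did not pass.

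Of 7 genes of TIM22 and its chaperones, which carry the carriers to the inner membrane, 5 were higher and 2 lower in SHRSP, and 4 higher and 2 lower in F344. Timm22 forms the channel for the carriers. It read 10.89, 10.84, 11.19 and 11.14 in SHRSP at E20, against 9.78 to 10.16 (median 9.92) at week 14. In F344, Timm22 ran from 10.87 to 11.35 (median 10.92) and from 9.91 to 10.38 (median 10.27). The stages did not overlap, with log2 differences of 1.06 (SE 0.10, adjusted p = 1.22e-09) and 0.84 (SE 0.08, adjusted p = 2.4e-09).

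The small chaperones work in pairs, Timm8a1 or Timm8b with Timm13, and Timm9 with Timm10. Timm13 read 9.28, 9.27, 9.09 and 9.01 in SHRSP at E20, against 8.09 to 8.31 (median 8.16) at week 14. In F344, Timm13 ran from 8.50 to 9.09 (median 8.93) and from 8.11 to 8.28 (median 8.22). It was higher on every fetal array, by 0.97 (SE 0.08, adjusted p = 2.18e-10) and 0.65 (SE 0.07, adjusted p = 8.37e-09).

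Timm8a1 read 9.25, 9.20, 9.09 and 8.91 in SHRSP at E20, against 8.43 to 8.72 (median 8.61) at week 14. In F344, Timm8a1 ran from 8.88 to 9.35 (median 9.16) and from 8.29 to 8.90 (median 8.62). It was higher by 0.51 and 0.54, and only the F344 groups overlapped, by 1 adult array at 8.90.

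Timm8b took the opposite direction. Its arrays read 12.96, 13.00, 12.61 and 12.77 in SHRSP at E20, against 13.46 to 13.91 (median 13.57) at week 14. In F344, Timm8b ran from 12.27 to 13.01 (median 12.68) and from 13.15 to 13.65 (median 13.40). All fetal arrays were below all adult ones, with log2 differences of -0.81 (SE 0.11, adjusted p = 1.39e-06) and -0.71 (SE 0.09, adjusted p = 5.17e-07). Timm9 was higher at E20 by 0.42 and 0.37, and its partner Timm10 lower, at -0.42 and -0.41 (in SHRSP adjusted p = 0.0798 with the close E20 pairs averaged). These pairings were noted after the values were seen, and no test was made of them.

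**Figure D4:**
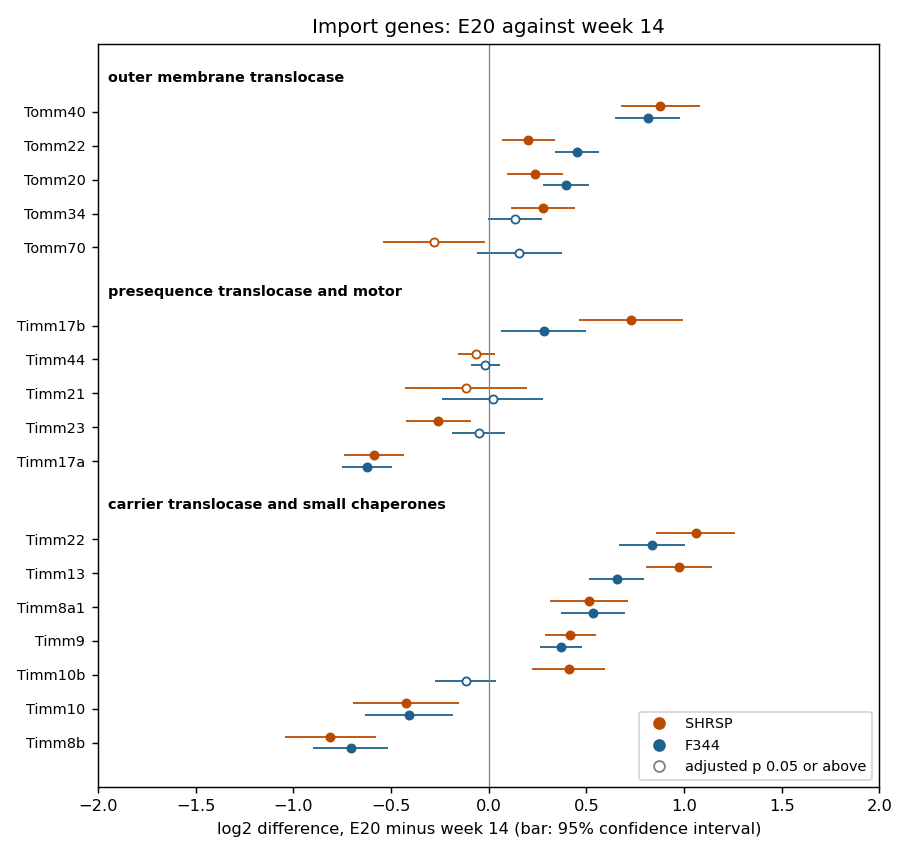
Log2 difference of E20 minus week 14 (x axis) for the 17 import genes grouped by complex, with Tomm34 set beside the TOM genes by its name (y axis), in SHRSP (orange) and F344 (blue), with 95% confidence intervals from the limma fit and open points where the gene did not pass. Timm17b and Timm17a lie on opposite sides of 0, as do Timm8a1 and Timm8b, and Timm9 and Timm10.

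Partners of import without a Timm or Tomm symbol gave mixed directions too. Of all named genes, by the probe with the highest mean, 20.4% were higher and 19.1% lower at E20 in SHRSP. In F344 these shares were 22% and 21.1%. Whether the lists below differ from them was not tested. Of 13 genes of the import motor, proteases and folding 3 were higher and 8 lower at E20 in SHRSP, and 3 higher and 7 lower in F344. The chaperonins Hspe1 (0.79 and 0.67) and Hspd1 (0.39 and 0.57) and the protease Yme1l1 (0.29 and 0.38) were the higher ones. Grpel1, the nucleotide exchange factor of the motor, had the most negative difference of those listed (-0.98 and -0.90). Also lower were the peptidase Mipep (-0.54 and -0.41), the motor chaperone Hspa9 (-0.41 and -0.41) and the protease Afg3l2 (-0.42 and -0.37).

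Of 10 genes that serve assembly in the outer membrane and the intermembrane space, 3 were higher and 2 lower in SHRSP, and 4 higher and 3 lower in F344. Agk, a subunit of TIM22, was higher by 0.22 and 0.37, and Mtch1 (1.02 and 0.48) and Mtx2 (0.41 and 0.67) were higher as well. Samm50, which inserts barrel proteins into the outer membrane, was lower, at -0.62 and -0.53, and Chchd3, a scaffold of the cristae, at -0.60 and -0.55.

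Of 18 other transporters of the mitochondrial membranes 2 were higher and 11 lower in SHRSP, and 5 higher and 9 lower in F344. Sfxn1, the serine transporter, was higher at E20 by 1.21 and 1.23, and Sfxn4 by 0.21 and 0.21. The pyruvate carrier subunits Mpc1 (-1.02 and -0.80) and Mpc2 (-0.75 and -0.75), the uncoupling protein Ucp2 (-0.70 and -1.43) and the outer membrane protein Tspo (-0.80 and -1.18) were lower.

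Between the strains at week 14, 1 of the 50 genes was higher and 5 were lower in SHRSP, against 4.49% and 4.46% of all probes. At E20 3 were higher and 4 lower, against 1.55% and 1.66%. At week 14 the counts ran from 0 to 4 higher and 3 to 9 lower under the alternatives, with the most by the methods' equal-variance test without adjustment. The strains' ranges did not overlap for 2 genes at week 14 and 5 at E20, against 3.38% and 4.66% of all probes. The count of 7 at E20 rests on few arrays: it was 3 without SHRSP E20 replicate 1 or 2, 4 without F344 E20 replicate 3, and 3 with the close SHRSP E20 pairs averaged.

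Slc25a52 and Slc25a30 were lower in SHRSP at both stages, with no overlap of the strains at either. Slc25a52 is related to the NAD carrier Slc25a51, and in human the 2 are nearly identical in sequence. Whether the rat probes tell them apart was not tested. Sequence differences of the strains under the probes of Slc25a52 or Slc25a30 were not tested either, and Slc25a52 has only 1 probe. Slc25a52 read 7.24, 7.31, 7.24 and 7.35 in SHRSP at E20, against 7.56 to 7.77 (median 7.70) in F344. At week 14, Slc25a52 ran from 7.12 to 7.32 (median 7.24) in SHRSP and from 7.39 to 7.61 (median 7.51) in F344. All these values are low on the scale, and SHRSP was below F344, at -0.41 for E20 (SE 0.05, adjusted p = 7.44e-07) and -0.26 for week 14 (SE 0.04, adjusted p = 1.14e-05). With background subtracted the differences were -1.24 and -0.96, and both calls were kept under the 12 alternatives that tested this probe and without each of the 26 arrays.

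Slc25a30 is a kidney carrier related to uncoupling proteins. It read 7.48, 7.46, 7.67 and 7.76 in SHRSP at E20, against 7.77 to 8.10 (median 7.97) in F344. At week 14, Slc25a30 ran from 7.99 to 8.13 (median 8.03) in SHRSP and from 8.19 to 8.63 (median 8.36) in F344. SHRSP was lower, at -0.36 at E20 (SE 0.07, adjusted p = 0.00225) and -0.30 at week 14 (SE 0.06, adjusted p = 0.000607), and with background subtracted -0.81 and -0.51. With its 3 probes averaged they were -0.18 and -0.13, and both calls were kept under all 13 alternatives and without each of the 26 arrays. Slc25a30 is the only one of the 50 with several probes, 3 in all. Of its dimmer probes ILMN_1530367 was lower in SHRSP at week 14 (-0.14, adjusted p = 0.0272) and did not pass at E20 (-0.11, adjusted p = 0.343), and ILMN_2038878 passed at neither stage (0.06 and -0.07, adjusted p = 0.426 and 0.614).

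Tomm22 was the gene higher in SHRSP at week 14. It ran from 10.13 to 10.38 (median 10.28) in SHRSP and from 9.90 to 10.25 (median 10.04) in F344, a log2 difference of 0.22 (SE 0.05, adjusted p = 0.00668). Under limma-trend, which lets the prior variance depend on the level, the call was lost (adjusted p = 0.0671). The strains overlapped, and at E20 they did not differ detectably (-0.03, adjusted p = 0.97).

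Timm17b was lower in SHRSP at week 14. It ran from 8.88 to 9.24 (median 9.06) in SHRSP and from 8.91 to 9.72 (median 9.50) in F344, which overlapped through 1 low F344 array. The difference was -0.38 (SE 0.11, adjusted p = 0.0205), and it was -0.35 without SHRSP week 14 replicate 2, where the call was lost (adjusted p = 0.0538).

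At E20 Timm10b, a small chaperone that in human joins the TIM22 complex, had the most positive difference on the deposited scale. It read 10.19, 10.04, 10.14 and 9.96 in SHRSP, all above F344, where it ran from 9.13 to 9.83 (median 9.65). The difference was 0.48 (SE 0.09, adjusted p = 0.00154) and passed without each of the 26 arrays in turn, from 0.39 to 0.51. It was lost by the methods' equal-variance test of the 2 groups after Benjamini-Hochberg adjustment (adjusted p = 0.114). At week 14 Timm10b did not differ detectably (-0.05, adjusted p = 0.814).

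The calls of Slc25a10, Timm13, Slc25a51 and Slc25a27 at E20 were each lost without some single arrays. Slc25a10 read 7.48, 7.49, 7.47 and 7.43 in SHRSP and 7.28 to 7.36 (median 7.30) in F344, apart by 0.16 (SE 0.04, adjusted p = 0.0167), and this call was lost without SHRSP E20 replicate 1 (adjusted p = 0.0626) or 2 (0.0712). Timm13 was higher in SHRSP by 0.30 (adjusted p = 0.0368), and its call was lost without F344 E20 replicate 2, 3 or 4 (adjusted p = 0.0579, 0.0506 and 0.0838) and without SHRSP E20 replicate 1, 2 or 3 (0.176, 0.176 and 0.0533).

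Slc25a51 read 8.55, 8.55, 8.48 and 8.39 in SHRSP and 8.54 to 9.19 (median 8.78) in F344 at E20, a difference of -0.31 (SE 0.09, adjusted p = 0.044). Its call was lost without any of 14 single arrays, namely each SHRSP array at E20, F344 E20 replicates 1 to 4, SHRSP week 14 replicates 1, 3, 5 and 7 and F344 week 14 replicates 5 and 6 (adjusted p = 0.0503 to 0.175). Slc25a27 was lower, at -0.14 (adjusted p = 0.0299), and its call was lost without SHRSP E20 replicate 1, 2 or 4 or F344 E20 replicate 3, 5, 6 or 7 (adjusted p = 0.0502 to 0.127). With the close SHRSP E20 pairs averaged, Slc25a10, Slc25a51, Timm13 and Slc25a27 did not pass (adjusted p = 0.212, 0.363, 0.305 and 0.285).

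Of the marker lists, 0 of 7 cardiomyocyte, 0 of 4 endothelial and 0 of 5 adipocyte markers passed between the strains at either stage, beside these results. Erythroid markers passed for 0 of 6 at week 14 and for 2 of 6, both higher in SHRSP, at E20, where their sums were 36083 to 44979 in SHRSP and 38238 to 48892 in F344. Of 6 fibroblast markers 1 was higher and 1 lower at week 14, of 4 macrophage markers 1 was lower there, and none of either list passed at E20. Both atrial markers measured passed at week 14, in opposite directions, and summed to 11656 to 28017 in SHRSP and 2898 to 8799 in F344. The part of these signals in the strain differences was not tested.

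The interaction of strain and stage, the E20 minus week 14 difference of SHRSP minus that of F344, passed for 3 of the 50 genes, all with a positive sign, against 1.02% of all probes with that sign and 2.96% with either. All 3 lost the call with the close SHRSP E20 pairs averaged, so they rest on counting the 4 SHRSP arrays at E20 as separate.

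Timm10b was higher at E20 in SHRSP (0.41, adjusted p = 0.000726), while its F344 value was -0.12 (adjusted p = 0.253). The adult arrays of both strains covered the same levels, 9.61 to 9.74 (median 9.67) in SHRSP and 9.55 to 9.94 (median 9.70) in F344. The interaction was 0.53 (SE 0.12, adjusted p = 0.00799, and 0.0562 with the pairs averaged).

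Slc25a21 read 7.32, 7.30, 7.31 and 7.25 in SHRSP at E20, against 7.38 to 7.57 (median 7.51) at week 14. In F344, Slc25a21 ran from 7.13 to 7.29 (median 7.21) and from 7.53 to 7.88 (median 7.71). The change was in the same direction in both strains and smaller in SHRSP, with an interaction of 0.31 (SE 0.07, adjusted p = 0.00661, and 0.0556 with the pairs averaged). At week 14 SHRSP was lower, at -0.22 (adjusted p = 0.000713).

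Slc25a35 read 7.33, 7.38, 7.42 and 7.38 in SHRSP at E20, against 7.78 to 7.99 (median 7.91) at week 14. In F344, Slc25a35 ran from 7.28 to 7.40 (median 7.33) and from 7.97 to 8.31 (median 8.08). The strains lay together at E20, and at week 14 SHRSP was lower, at -0.22 (adjusted p = 0.000935). The interaction of 0.26 (SE 0.07, adjusted p = 0.0343) was lost without any of 9 single arrays, namely F344 E20 replicate 2, 5 or 7, SHRSP E20 replicate 2, 3 or 4, and SHRSP week 14 replicate 1, 4 or 6 (adjusted p = 0.0518 to 0.097), and with the pairs averaged (0.181).

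**Figure D5:**
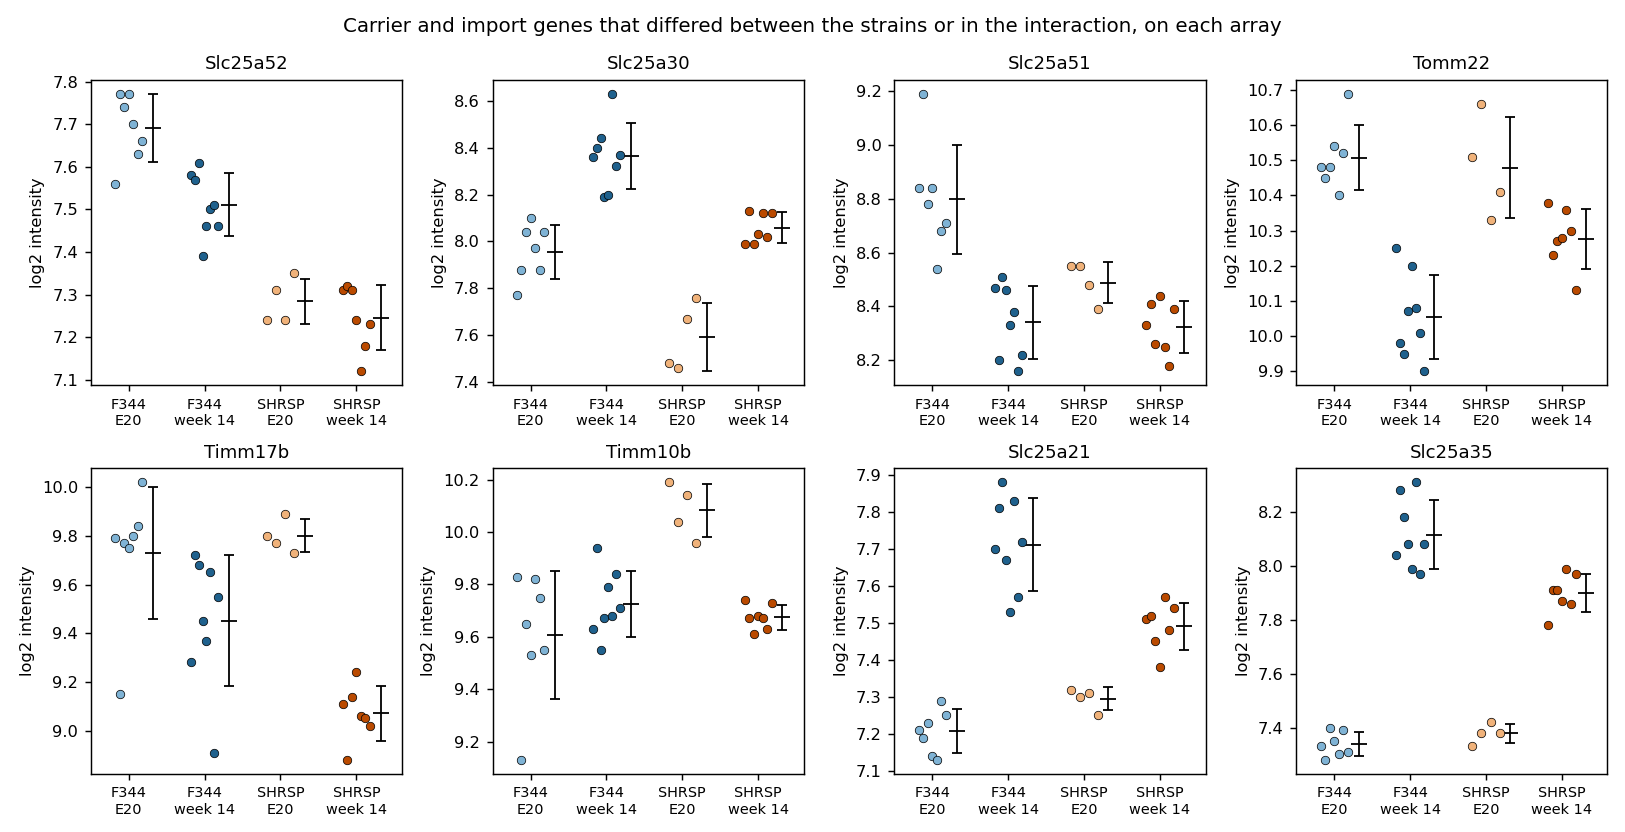
Log2 intensity on each array (y axes, each panel with its own range) for 8 carrier and import genes in the 4 groups (x axis), with 1 point per array and bars for mean ± SD. Slc25a52 and Slc25a30 lie lower in SHRSP at both stages, Tomm22 and Timm17b differ at week 14, Timm10b and Slc25a51 at E20, and Slc25a21 and Slc25a35 change less in SHRSP (-0.20 and -0.52) than in F344 (-0.50 and -0.78).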

How the data were processed

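RNA of 26 hearts was hybridized to the bead arrays used here, which the authors read in GenomeStudio. They dropped arrays that correlated too little with their own group, and deposited log2 intensities after quantile normalization. Those values were used unchanged, and a background correction is not given in the sources used here. The raw intensities stand in 52 columns that no sample label matches, so they were left out, and a planned detection filter could not be applied.

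Genes were named from the array annotation, with symbols updated by gene ID. Of several probes the one with the highest mean over all arrays stands for its gene. All 22523 probes were fitted in limma 3.58.1 (R 4.3.3) with 1 mean per group, and p-values were adjusted by the method of Benjamini and Hochberg. Isoform balance was compared by exact permutation of arrays (SciPy 1.17.1). Slc25a12 and Slc25a13 have no named probe, so a planned balance of these was not run.

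Every gene of the group is named by role. Values of single arrays are given for the ADP/ATP carriers and for genes past the adjusted p with the largest differences, up to 5 per direction for development (mean of both strains) and for week 14, up to 3 per direction at E20 and up to 6 in the interaction. Genes and lists were chosen with earlier results of these data known.

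The fit was tested on simulated data. Alternatives were a replicate block, the compared groups alone, array weights, limma-trend, a t-test as in the methods, other scalings, filters and probe rules, and leaving out each array. Averaging close pairs of SHRSP E20 arrays was added after the data were seen. Precision is limited by the number of arrays, and as no source names litters, p-values measure the spread between these samples.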

Additional observations from a re-analysis of the deposited data

Results flagged for a closer look

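A single array stood apart in 2 of the 80 groups checked (20 genes in 4 groups), where about 4 are expected at a rate of 1 in 20. For Slc25a4, F344 week 14 replicate 1 read 15.01, below the other arrays of its group at 15.13 to 15.23, and still above every F344 array at E20. For Timm17b, F344 E20 replicate 2 read 9.15, below the others at 9.75 to 10.02. The change with development differed between the strains, by the test of the interaction in limma, for Timm10b (0.53, adjusted p = 0.00799), Slc25a21 (0.31, adjusted p = 0.00661) and Slc25a35 (0.26, adjusted p = 0.0343). All 3 are positive, that of Timm10b from a higher level of SHRSP at E20, and those of Slc25a21 and Slc25a35 beside a lower level of SHRSP at week 14.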

How the results depend on the processing

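The counts of genes that passed and the balance of the ADP/ATP carriers took 309 values under the alternatives, and 298 of them kept direction and call or stayed within 1.5 times of the count. Averaging the close SHRSP E20 pairs was tried for the counts and not for the balance. The exceptions among totals concern the strains and the interaction. By direction, 11 genes in place of 17 were higher for development in F344 with probes under the 75th percentile left out. Instead of 7 genes at E20, 4 passed with background subtracted (floor of 16), 4 with probes under the 75th percentile left out, 4 by the methods' t-test after Benjamini-Hochberg adjustment and 3 with the close SHRSP E20 pairs averaged. Without adjustment the methods' t-test called 11 genes at E20 and, instead of 6, 13 at week 14. Instead of 3 genes in the interaction, 1 passed with probes under the 75th percentile left out and 0 with the pairs averaged. Those 2 alternatives test fewer probes and fewer arrays. For the other changes the cause was not tested. Without each array in turn, the count was 3 to 7 at E20, with 3 without SHRSP E20 replicate 1 or 2 and 4 without F344 E20 replicate 3. It was 6 to 8 at week 14, 29 to 35 for development in SHRSP, 30 to 34 for development in F344, and 2 to 4 for the interaction.

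Deviations of same-numbered arrays of different groups correlated at -0.241 to 0.44, over 0.1 in 12 of 33 pairs. Differently numbered arrays were not compared in this way, so the check cannot decide whether the numbers mark shared processing. With the replicate number as a block, the counts were 32 and 31 for development in SHRSP and F344, 5 for the strains at each stage and 2 for the interaction.

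Of 2353 values for 61 results of named genes, 2276 kept direction and call, 74 lost the call, 3 gained it and 0 reversed. Background subtraction enlarged differences of dim genes, up to -3.04 for Slc25a34 in SHRSP. Losses were most frequent for Slc25a51 and Timm13 between the strains at E20, Timm17b in F344 development and the interaction of Slc25a35, which the block ended too (adjusted p = 0.0529), as it did the Timm17b difference of the strains at week 14 (0.0647). Under limma-trend the week 14 difference of Tomm22 did not pass (adjusted p = 0.0671). Low signal limits 17 genes that lie under the 75th percentile in every group.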
